A study of Homo sapiens with 105 samples.

Results

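Imiquimod and nonoxynol-9 (N-9) were set against each other in Vk2/E6E7 cells, a single vaginal epithelial line immortalised with papillomavirus E6 and E7 genes, here called Vk2 cells. The 15 arrays compared, of 105 in the series, were taken by their sample labels as the 6 from imiquimod-treated cells and the 9 from N-9-treated cells, and 53 of the 54 arrays of untreated cells in growth medium (GM) placed each level. All cells were of the same line, and treatment lasted 6 h. Imiquimod was at 30 mg/ml by the labels and at 30 μg/ml by the study's methods, and N-9 was at 12.5 μg/ml, so each compound was tested at 1 dose and the doses are not matched. RNA was hybridised to Affymetrix U133 Plus 2.0 arrays, 1 colour and 1 sample per array. The labels call the arrays of a group biological replicates but do not say that each came from its own culture, and p-values here reflect only differences among arrays, which may be technical.

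Imiquimod is an imidazoquinoline that activates Toll-like receptor 7 (TLR7) and is used as a topical immune stimulant. N-9 is a non-ionic surfactant, used as a spermicide, that disrupts lipid membranes. Unfolded protein in the endoplasmic reticulum (ER) is sensed by the kinases PERK (gene EIF2AK3) and IRE1 (gene ERN1) and by the membrane-bound factor ATF6. PERK slows general translation through the initiation factor eIF2 and lets the transcription factor ATF4 be made, which induces DDIT3 (CHOP), CHAC1, TRIB3 and amino acid genes. IRE1 splices XBP1 mRNA, and XBP1 and ATF6 induce chaperones such as HSPA5 (BiP) and the genes of ER-associated degradation (ERAD). Other kinases can also start the ATF4 arm, for instance under amino acid shortage, so both arms need not move together.

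Arrays with consecutive replicate numbers stood together in sets of 3. Within a set, the deviations of 2 arrays from their group mean had a median correlation of 0.07 (imiquimod) and 0.26 (N-9), against -0.36 and -0.28 for arrays of different sets. Imiquimod has 2 such sets and N-9 has 3, and the labels do not say what a set shares. The deposited log2 signals had a median of 6.55 ± 0.09 on the imiquimod arrays (SD, n = 6) and 6.79 ± 0.14 on the N-9 arrays (SD, n = 9), lying by set at 6.53 to 6.69 and 6.46 to 6.51 with imiquimod and at 6.83 to 6.89, 6.83 to 6.97 and 6.57 to 6.65 with N-9, and all values below are after quantile normalization. The 3' over 5' signal of ACTB, a measure of RNA integrity and labelling, was 0.951 ± 0.682 log2 on the imiquimod arrays, 0.390 ± 0.112 on the N-9 arrays and 0.430 ± 0.279 on the GM arrays. It was 0.90 to 2.17 on imiquimod replicates 1 to 3 and 0.36 to 0.53 on replicates 4 to 6, and its part in the results was not tested. The 11 markers of stratified epithelium had mean log2 levels of 13.58 to 13.76 on imiquimod arrays and 13.38 to 13.80 on N-9 arrays, and the 10 leukocyte, 8 columnar epithelium and 10 fibroblast and endothelial markers had mean levels below 7 on every array of both groups. None of these 4 marker lists held a member that passed the direct test. Of 10 reference genes, SDHA (1.06 log2) and TBP (0.38) were higher with imiquimod, TBP not with sets of 3 as a block (adjusted p = 0.345), and neither without imiquimod replicates 1 to 3 (adjusted p = 0.484 and 0.343), while GAPDH differed by -0.09 (adjusted p = 0.578). Since RNA was taken from whole cultures, fewer cells expressing a gene and less of its RNA per cell cannot be told apart.

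Between the 2 treatments, 1242 of 54613 probesets were higher with imiquimod (2.27%) and 1428 were higher with N-9 (2.61%), at an adjusted p below 0.05 in limma and a fold change above 2. Taking the brightest probeset of each of 19775 named genes, 541 genes were higher with imiquimod and 217 with N-9, of which 265 and 102 were also called when the sets of 3 were fitted as a random block. The balance of directions moved with the scaling, since without quantile normalization 731 probesets were higher with imiquimod and 2164 with N-9, and with arrays centred on their medians the counts were 1599 and 1190. The scatter of differences by level shows calls in both directions over the whole range of signals.

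**Figure D1:**
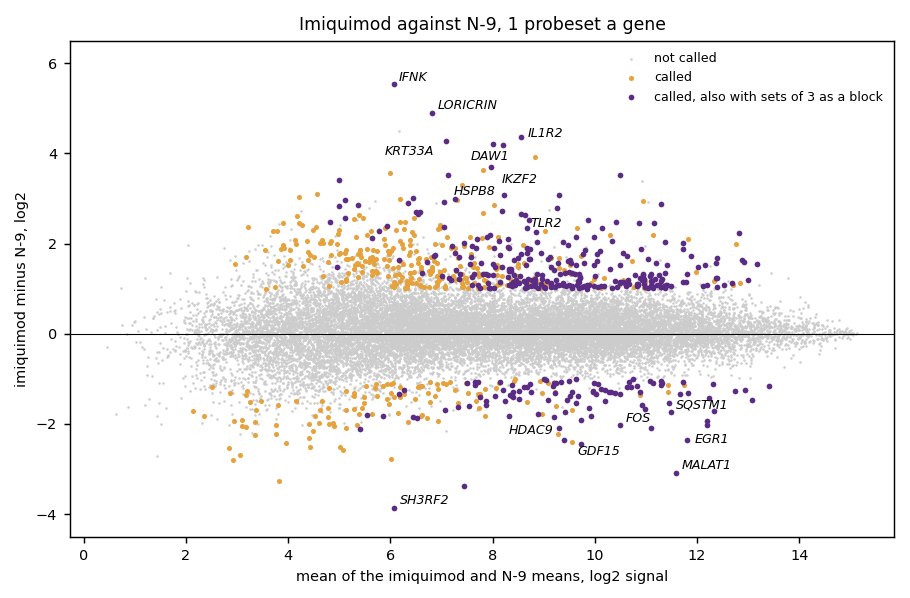
Difference imiquimod minus N-9 (log2, vertical axis) against the mean level of imiquimod and N-9 arrays (log2 signal, horizontal axis) for the brightest probeset of 19775 named genes. Grey points were not called, coloured points were called, 541 above and 217 below 0, and the darker ones, 265 and 102, were also called with sets of 3 as a block.

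Both compounds raised members of the ATF4 arm over the GM mean, and N-9 raised DDIT3 further. Of 43 measured ATF4 and amino acid response genes, imiquimod raised 20 over GM and N-9 raised 26, and neither lowered any (over all named genes, 6.89% were above and 7.04% below GM with imiquimod, and 6.65% and 13.2% with N-9). The median member was 0.61 above GM with imiquimod and 0.60 with N-9 on the log2 scale, and the GM arrays are the same in both values. The list mean was 11.06 to 11.42 with imiquimod, 11.14 to 11.97 with N-9 and 10.07 to 11.44 in GM. Some untreated arrays thus reached the imiquimod levels. Set against each other, 1 member (VLDLR) was higher and 6 were lower with imiquimod, where 7.77% of all named genes were higher and 3.89% lower at an adjusted p below 0.05. Those 6 were GDF15, ATF3, DDIT3, PPP1R15A, AARS1 and SLC3A2, and 3 of them (ATF3, DDIT3, PPP1R15A) passed with sets of 3 as a block. The median member differed by -0.29, against 0.07 over all named genes. The count of lower members was between 2 and 9 when a set of 3 was left out, with 2 lacking imiquimod replicates 1 to 3 and 9 lacking N-9 replicates 7 to 9.

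DDIT3 encodes the pro-apoptotic factor CHOP, and of the 4 members with the largest differences it alone passed with any set of 3 left out. Its lowest, median and highest log2 signals were 11.38, 11.54 and 11.63 with imiquimod, 12.17, 12.99 and 13.66 with N-9, and it averaged 8.02 ± 0.69 in GM (SD, n = 53). The groups did not overlap, and every treated array was above the highest GM array at 9.40. DDIT3 was thus 3.49 above GM with imiquimod and 4.91 with N-9, a direct difference of -1.42 (SE 0.29, 2.68-fold lower with imiquimod, adjusted p = 0.000291, and 0.0299 with the block). ATF4 itself was at 13.62 with imiquimod, 13.85 with N-9 and 12.59 in GM, and its treatments were not separated (-0.22, adjusted p = 0.695).

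PPP1R15A (GADD34), the phosphatase subunit that reverses the eIF2 signal, was at 10.70, 10.75 and 10.91 with imiquimod and at 10.92, 11.46 and 13.15 with N-9 (lowest, median and highest). The difference was -1.09 (SE 0.23, adjusted p = 0.000326). ATF3, a partner and target of this arm, was at 9.87, 10.16 and 10.29 with imiquimod and at 10.04, 10.68 and 14.37 with N-9 (-1.68, SE 0.42, adjusted p = 0.00337). N-9 replicates 4 to 6 carried the upper end of both genes, at 13.03 to 13.15 for PPP1R15A and 14.22 to 14.37 for ATF3, and without them neither passed (adjusted p = 0.133 and 0.491), nor did ATF3 without imiquimod replicates 1 to 3 (0.0605). GDF15, a secreted stress cytokine, was at 7.84 to 8.83 with imiquimod and 9.39 to 12.26 with N-9, without overlap (-2.40, adjusted p = 0.0163), but not with the block (adjusted p = 0.151). AARS1, an aminoacyl-tRNA synthetase (-0.57), and SLC3A2, an amino acid transporter subunit (-0.44), were likewise lost with the block (adjusted p = 0.122 and 0.135), as was VLDLR, a lipoprotein receptor (0.90, adjusted p = 0.0806).

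Other members sat high with both compounds and were not separated. CHAC1, which degrades glutathione, was 2.95 above GM with imiquimod and 3.59 with N-9 (direct difference -0.64, adjusted p = 0.496). CTH, a cysteine-making enzyme, was 2.08 above GM with imiquimod and 2.27 with N-9 (-0.19, adjusted p = 0.888).

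The chaperone arm leaned the other way by count. Of 37 measured ER chaperone, XBP1 and ERAD genes, imiquimod raised 26 over GM and N-9 raised 21, neither lowered any, and the median member was 0.84 above GM with imiquimod and 0.66 with N-9. The list mean was 11.95 to 12.19 with imiquimod, 11.30 to 12.33 with N-9 and 10.80 to 11.63 in GM. Of all named genes, 7.77% were higher with imiquimod and 3.89% lower in the direct test. Among the 37, 6 members were higher with imiquimod (EIF2AK3, DNAJC3, SPCS3, EDEM3, CANX, SEC61B) and none was lower, and the median difference was 0.30. With sets of 3 as a block only EIF2AK3 passed. The count of higher members was 0 without N-9 replicates 4 to 6, when 1 member was lower, 12 without N-9 replicates 7 to 9, 15 without N-9 replicates 1 to 3 and 14 with arrays centred on their medians, so its size depended on the arrays and the scaling.

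EIF2AK3, the PERK kinase, was at 11.32, 11.65 and 11.91 with imiquimod and at 9.74, 10.85 and 11.04 with N-9 (lowest, median and highest). The arrays did not overlap, and the difference was 1.05 (SE 0.25, adjusted p = 0.00157, and 0.0149 with the block), lost without N-9 replicates 4 to 6 (adjusted p = 0.0778) or imiquimod replicates 4 to 6 (0.0586). DNAJC3, a co-chaperone that restrains PERK, was 0.78 higher (adjusted p = 0.0596 with the block). SPCS3 of the signal peptidase (0.60), EDEM3 of ERAD (0.48), CANX, the lectin chaperone calnexin (0.43), and SEC61B of the translocon (0.40) were higher with imiquimod in the direct test, with adjusted p = 0.107, 0.347, 0.161 and 0.107 with the block.

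HSPA5, the main ER chaperone, overlapped between the treatments, at 14.86 to 15.02 with imiquimod and 14.61 to 15.07 with N-9, against 13.78 in GM (direct difference 0.03, adjusted p = 0.950), and it was singled out after its values were seen. HERPUD1, an ERAD scaffold, led the list with both compounds, 3.04 above GM with imiquimod and 3.57 with N-9 (-0.53, adjusted p = 0.268). HSP90B1, the ER form of HSP90, was at 12.33, 12.56 and 12.73 with imiquimod and 13.37, 13.44 and 13.89 with N-9. Its arrays did not overlap, yet its difference of -0.98 missed the threshold, with an SE of 0.35 that rests on the spread of all groups (SD 0.81 in GM, adjusted p = 0.0528). SDF2L1, an HSPA5 cofactor, was 2.53 above GM with imiquimod and 1.84 with N-9 (0.69, adjusted p = 0.0542), and ERO1B, an ER oxidase, 2.85 above GM with imiquimod and 1.66 with N-9 (1.19, adjusted p = 0.0687). XBP1 was 1.12 above GM with imiquimod and 1.40 with N-9 (-0.28, adjusted p = 0.356), and the arrays do not report its splicing.

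**Figure D2:**
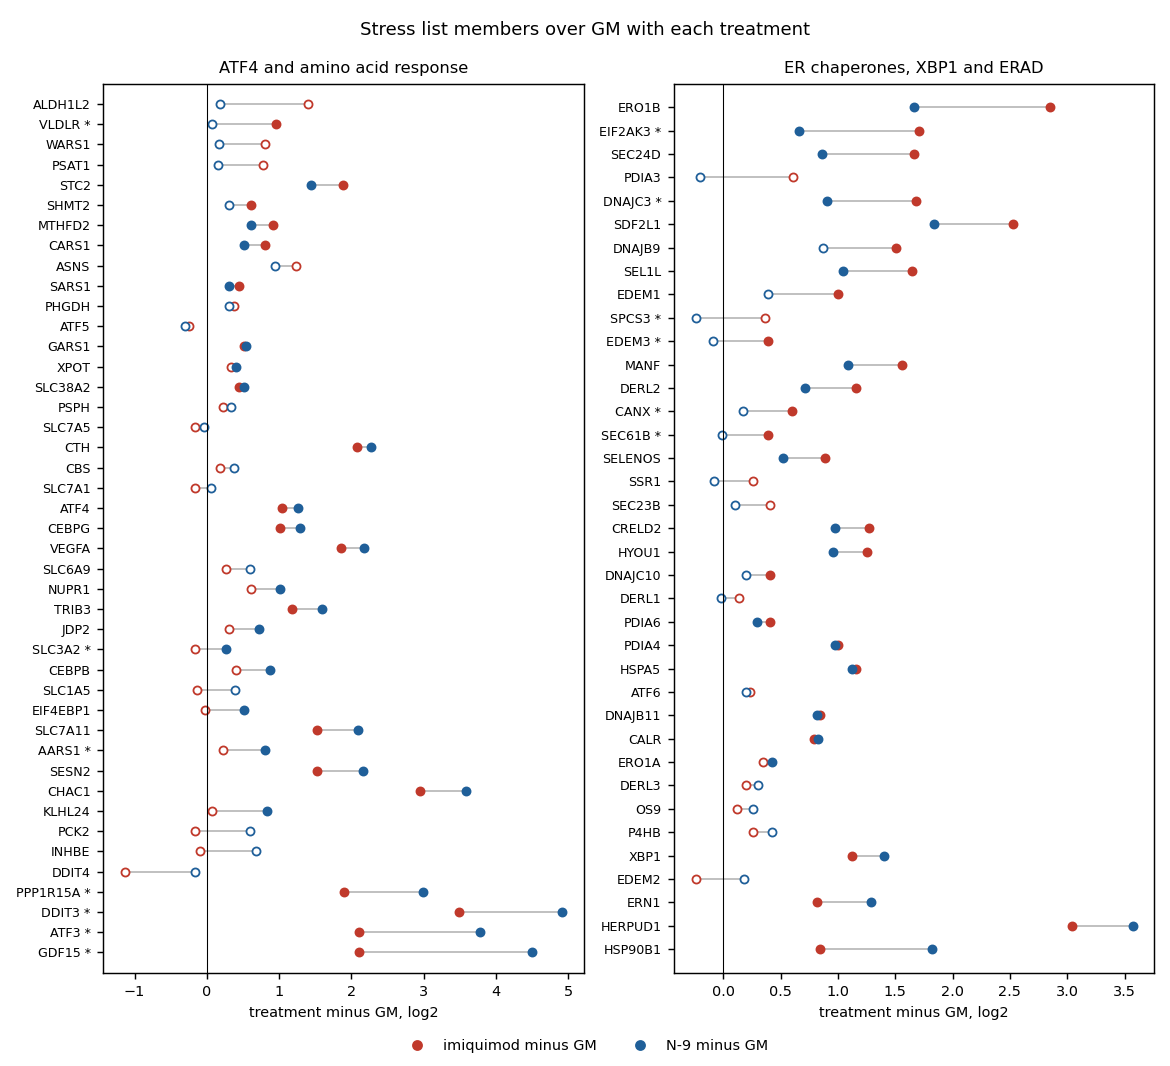
Each row is 1 of the 43 ATF4 and amino acid response genes or 37 ER chaperone, XBP1 and ERAD genes, and the horizontal axis is its imiquimod mean and its N-9 mean, each minus the GM mean (log2). Filled points passed the test against GM (20 and 26 of the ATF4 genes, 26 and 21 of the ER genes with imiquimod and N-9) and stars mark the 7 ATF4 and 6 ER genes that passed the direct test.

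**Figure D3:**
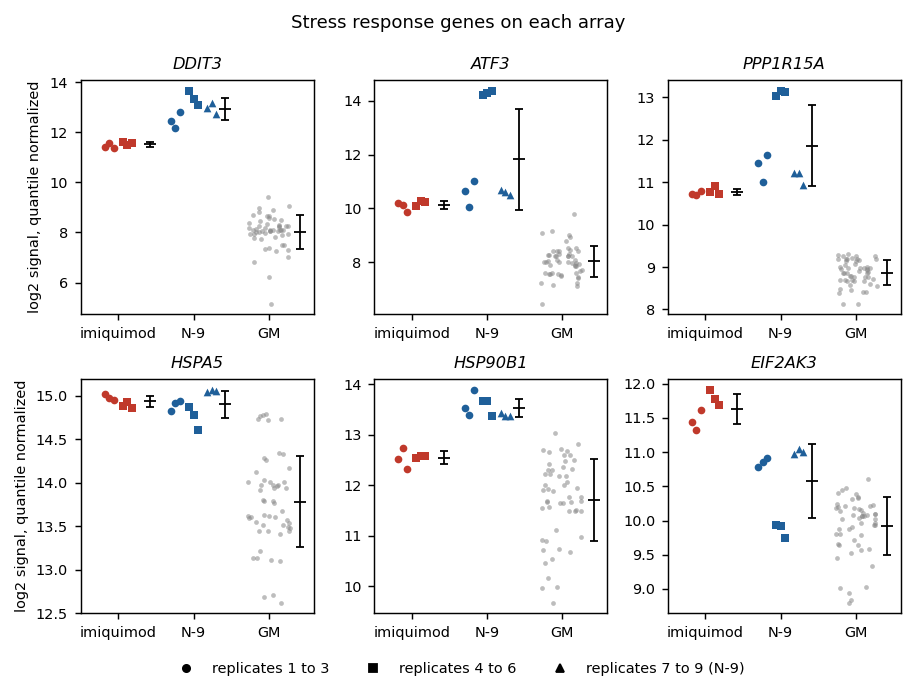
Log2 signal per array of DDIT3, ATF3, PPP1R15A, HSPA5, HSP90B1 and EIF2AK3 in imiquimod, N-9 and GM, with the symbol showing the set of 3 and the bar the mean ± SD. DDIT3 at 11.38 to 11.63 with imiquimod lay wholly under 12.17 to 13.66 with N-9, HSPA5 overlapped, EIF2AK3 was higher with imiquimod, and N-9 replicates 4 to 6 stood apart for ATF3 and PPP1R15A.

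Upstream sequence was searched for the elements through which these factors are known to act. Windows of 300 bases around the start sites of RefSeq genes (GRCh38.p14, 250 before to 50 after) were searched on both strands for the ER stress response element (ERSE, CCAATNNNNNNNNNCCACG), the composite C/EBP-ATF element of the ATF4 arm (CARE, TGATGNAA), the cAMP element (CRE, TGACGTCA), the heat shock element (HSE, GAANNTTCNNGAA) and the CArG box of serum response genes. Shares are over all windows, but each list gene was searched only in the first window listed for it. Any other start site of a list gene, ATF3 included, was not counted or shown. ERSE was in 0.0769% of 35116 windows, in 7 of 33 ER genes with a window (CALR, CANX, CRELD2, ERO1B, HSP90B1, HSPA5, XBP1) and in 0 of 35 ATF4 genes. CARE was in 3.62% of windows, in 7 of the 35 ATF4 genes (AARS1, ASNS, ATF3, CARS1, CHAC1, SLC3A2, SLC7A1) and in 1 ER gene, HERPUD1. Genes with ERSE stood on either side of 0, from HSP90B1 at -0.98 and XBP1 at -0.28 through HSPA5 at 0.03 to ERO1B at 1.19. Their 200 bases before the start site are shown with ATF3 for the ATF4 arm, at chr22:28800570-28800769 (minus strand) for XBP1, chr9:125241344-125241543 (minus) for HSPA5, chr12:103930210-103930409 (plus) for HSP90B1 and chr1:212565207-212565406 (plus) for ATF3. Capitals mark ERSE in the first 3 sequences and CARE in ATF3, and a match is a description of letters, not of a bound site.
XBP1: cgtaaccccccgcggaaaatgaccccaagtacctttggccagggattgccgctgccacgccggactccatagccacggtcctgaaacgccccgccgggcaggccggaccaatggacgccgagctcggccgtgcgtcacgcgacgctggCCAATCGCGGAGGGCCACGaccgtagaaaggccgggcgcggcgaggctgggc
HSPA5: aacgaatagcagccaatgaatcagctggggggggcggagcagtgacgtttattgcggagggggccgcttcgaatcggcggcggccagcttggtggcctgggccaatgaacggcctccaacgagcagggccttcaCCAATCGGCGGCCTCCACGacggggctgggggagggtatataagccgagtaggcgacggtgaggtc
HSP90B1: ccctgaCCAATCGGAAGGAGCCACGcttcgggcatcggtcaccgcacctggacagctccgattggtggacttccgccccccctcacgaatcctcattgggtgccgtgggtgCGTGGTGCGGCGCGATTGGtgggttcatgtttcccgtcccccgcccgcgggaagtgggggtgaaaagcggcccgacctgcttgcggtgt
ATF3: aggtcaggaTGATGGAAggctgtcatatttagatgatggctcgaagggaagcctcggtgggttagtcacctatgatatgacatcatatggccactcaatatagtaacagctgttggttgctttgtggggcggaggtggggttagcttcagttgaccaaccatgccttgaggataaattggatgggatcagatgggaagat

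The genes highest with imiquimod were named as the 14 with the largest difference among 169 that were called, did not overlap, stayed called with the block and had a mean of at least 7 in the brighter group. Over all named genes, 813 (4.11%) had arrays of the 2 treatments that did not overlap. Against GM, 13 of these 14 were above with imiquimod, 1 (KRT33A, between dim levels) was above and 3 were below with N-9, and 10 moved with imiquimod alone. In 11 of the 14 the N-9 mean was below 7, a dim signal, so their folds are imprecise.

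IFNK encodes interferon kappa, the keratinocyte type I interferon. Its lowest, median and highest signals were 8.14, 8.70 and 9.66 with imiquimod, 0.80, 2.71 and 6.06 with N-9, and it averaged 5.48 ± 1.77 in GM (SD, n = 53). The difference was 5.53 (SE 0.79, adjusted p = 1.87e-07), 3.35 above GM with imiquimod and 2.18 below GM with N-9, where it was dim on every array. N-9 replicates 7 to 9 were at 5.05 to 6.06, around the GM mean, and replicates 1 to 6 at 0.80 to 3.92. IL1R2, the decoy receptor for interleukin-1, was at 9.93, 10.66 and 11.82 with imiquimod and 5.03, 6.77 and 7.45 with N-9, with GM at 6.24 ± 1.28 (difference 4.37, SE 0.59, adjusted p = 4.37e-08). DAW1, an assembly factor of ciliary dynein, was at 9.17, 10.10 and 11.02 with imiquimod and 4.40, 6.11 and 7.13 with N-9 (4.22, SE 0.39, adjusted p = 8.66e-15). For IL1R2 and DAW1 the N-9 mean was within 0.12 of GM, so the separation lay on the imiquimod side.

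KRT33A, a hair keratin, was at 8.62, 9.27 and 9.78 with imiquimod and 3.58, 4.51 and 6.19 with N-9 (4.28, SE 0.52, adjusted p = 1.81e-09). It was dim on every N-9 array and averaged 3.17 ± 1.04 in GM, close to the 10th percentile of the GM arrays (3.06), so the size of its fold is not measured and its N-9 and GM levels are not set against each other. IKZF2, a lymphoid zinc finger factor also called Helios, was higher by 3.70 (2.18 above GM with imiquimod and 1.52 below with N-9), and NFATC2, a calcium-dependent factor, by 3.51. IKZF2 was dim on N-9 replicates 1 to 3, at 1.23 to 4.84, and at 7.09 to 7.94 on replicates 4 to 9. Mostly 1 set thus put its N-9 mean below GM. The others were WFDC21P, a pseudogene (2.73), SHISA2, a receptor-trafficking regulator (2.67), PSG7 of the pregnancy-specific glycoproteins (2.63), a family of near-identical genes whose probes may share signal, and GCNA, a germ cell protein (2.52). All of these passed with any set of 3 left out, which 4 more of the 14 did not.

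Those 4 were HSPB8, a small heat shock protein (3.07), BBOX1, the last enzyme of carnitine synthesis (2.98), SLC6A14, an amino acid transporter (6.49-fold), and CRCT1, a gene of the epidermal differentiation complex (2.53). Imiquimod replicates 4 to 6 were the higher imiquimod set for all 4. HSPB8 was at 11.32 to 11.52 there and at 7.97 to 8.18 on replicates 1 to 3, against 5.77 to 7.59 with N-9. SLC6A14 was at 9.28 to 9.49 and at 6.01 to 6.60 on the same sets, against 4.71 to 5.91 with N-9. BBOX1 was at 9.69 to 9.80 and at 7.61 to 7.86 on these sets, against 4.48 to 7.45 with N-9. Its GM arrays ran from 1.84 to 10.90, so untreated arrays spanned its levels with both treatments. Both imiquimod sets were above N-9, but without replicates 4 to 6 the adjusted p was 0.458 for HSPB8, 0.247 for BBOX1, 0.289 for SLC6A14 and 0.362 for CRCT1, and without N-9 replicates 4 to 6 it was 0.0688 for CRCT1.

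**Figure D4:**
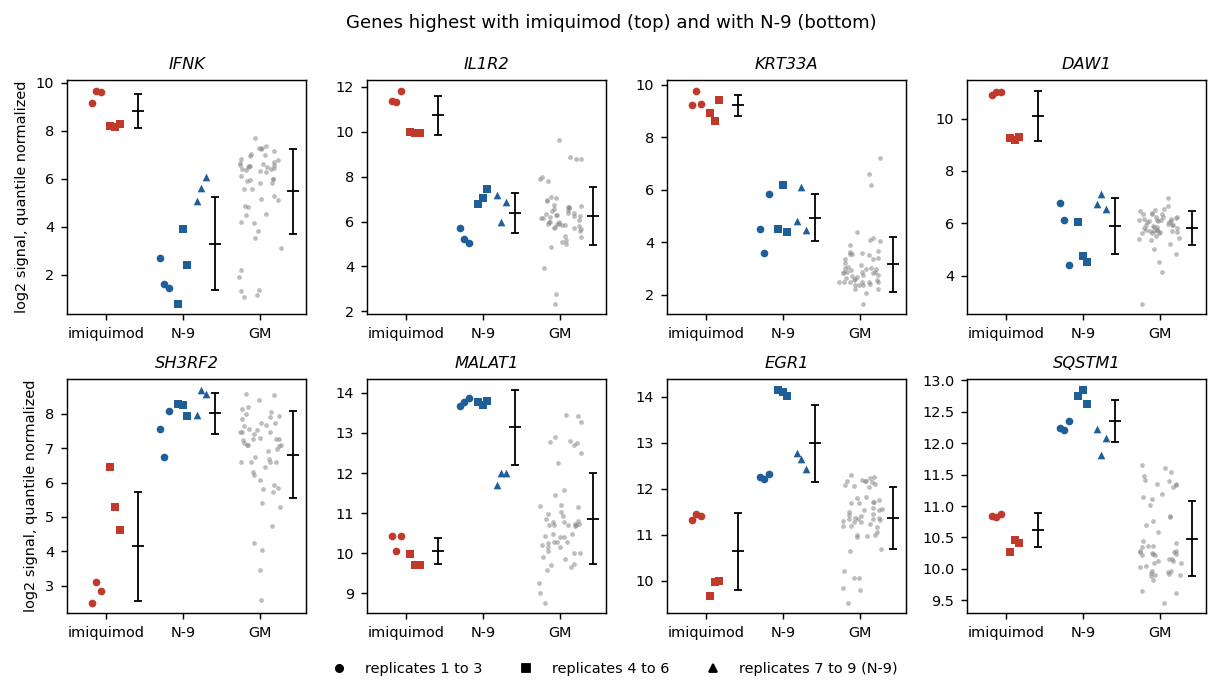
Log2 signal per array of 8 genes far apart between the treatments, IFNK, IL1R2, KRT33A and DAW1 (higher with imiquimod) and SH3RF2, MALAT1, EGR1 and SQSTM1 (higher with N-9), with GM for level. Symbols show the sets of 3 and bars the mean ± SD. Imiquimod and N-9 arrays do not overlap in any of the 8, which the rule that named these genes required.

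A share of the late squamous differentiation genes was higher with imiquimod, through 1 set. Over all named genes, 7.77% were higher with imiquimod and 3.89% lower in the direct test. Of 29 cornified envelope genes 10 were higher with imiquimod, none was lower, and the median difference was 1.64, with 5 passing with the block. Their mean relative to GM was -0.33 to -0.24 on imiquimod replicates 1 to 3, 3.07 to 3.16 on replicates 4 to 6 and -0.91 to 0.52 with N-9. Untreated arrays spanned these levels, since the list mean was 8.09 to 11.58 with imiquimod, 7.51 to 8.94 with N-9 and 6.72 to 12.23 in GM. LORICRIN, a major cornified envelope protein, was at 5.27 to 5.60 on imiquimod replicates 1 to 3 and 13.02 to 13.15 on replicates 4 to 6, against 2.45 to 5.80 with N-9 (difference 4.90, adjusted p = 0.0108). KRT1, the suprabasal keratin, was at 7.25 to 8.09 and 13.77 to 13.86 on the same sets, against 5.10 to 8.11 with N-9 (3.92, adjusted p = 0.0150, and 0.0570 with the block). LCE3D, a late envelope gene, differed by 2.87 (adjusted p = 0.0178), and DSC1, a desmosomal cadherin, by 3.09 (adjusted p = 0.0134, and 0.169 with the block). Without imiquimod replicates 4 to 6 no member of the list passed (adjusted p = 0.766 for LORICRIN, 0.765 for KRT1, 0.617 for LCE3D and 0.282 for DSC1), and without replicates 1 to 3 19 did.

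Interferon-stimulated genes stood above the GM mean on 1 imiquimod set and below it on the other. Their list mean relative to GM was 1.51 to 1.59 on imiquimod replicates 1 to 3, -1.50 to -1.49 on replicates 4 to 6 and -0.70 to -0.38 with N-9. Here too untreated arrays spanned nearly the same levels, with list means of 8.15 to 11.24 with imiquimod, 8.96 to 9.27 with N-9 and 8.19 to 11.89 in GM. Of 37 members, 5 were higher with imiquimod than with N-9 and none was lower, 22 were higher without imiquimod replicates 4 to 6, and 1 was higher and 4 were lower without replicates 1 to 3. In the direct test over all arrays, 7.77% of all named genes were higher and 3.89% lower. GBP1, an interferon-induced GTPase, was at 12.35 to 12.50 on imiquimod replicates 1 to 3 and 9.52 to 9.88 on replicates 4 to 6, against 7.18 to 9.83 with N-9 (2.15, adjusted p = 0.00298). It lost its call without imiquimod replicates 1 to 3 (adjusted p = 0.546) or N-9 replicates 1 to 3 (0.0708). USP18, which removes the ubiquitin-like ISG15 (2.13, adjusted p = 0.0199, and 0.0753 with the block), and BST2, the virion tether tetherin (2.20, adjusted p = 0.0438, and 0.114 with the block), also failed without imiquimod replicates 1 to 3 (adjusted p = 0.857 and 0.660) or N-9 replicates 4 to 6 (0.0978 and 0.850), and USP18 without N-9 replicates 1 to 3 (0.0726). SAMD9, a growth-restraining antiviral gene, had like values in both imiquimod sets, at 10.74 to 11.23 with imiquimod and 8.86 to 9.99 with N-9 (1.43, adjusted p = 0.00114), and passed with any set left out. Against GM, 2 members were above with imiquimod and 7 were below with N-9.

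**Figure D5:**
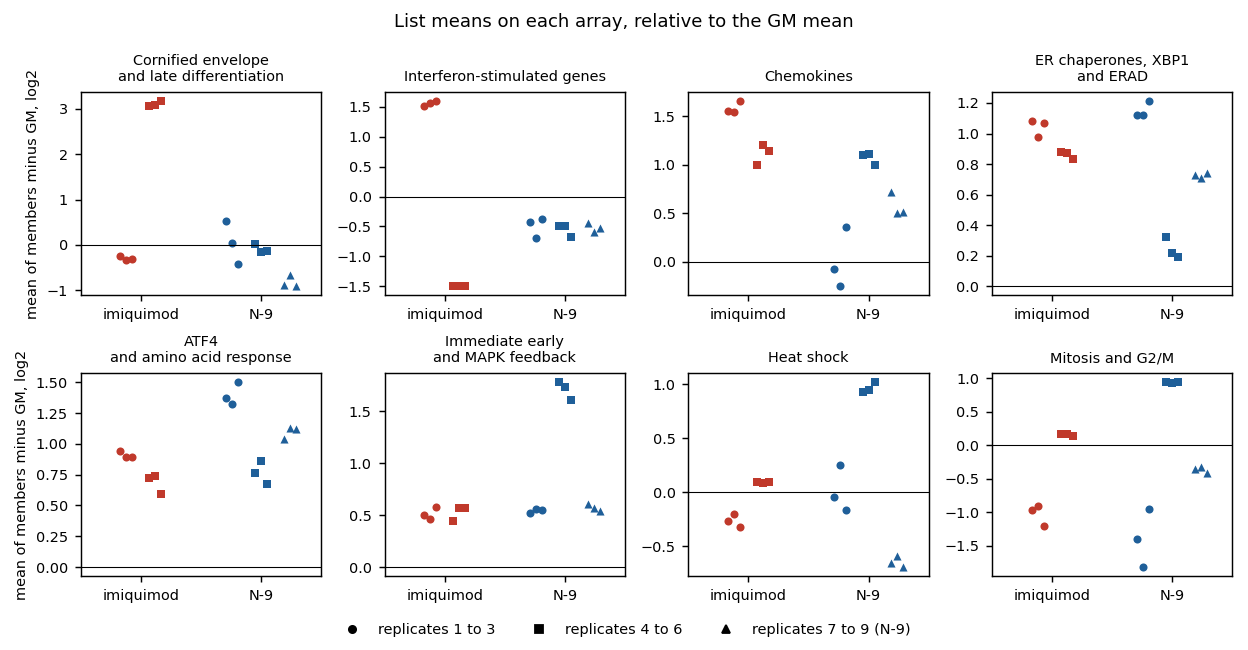
Mean of 8 gene lists on each imiquimod and N-9 array relative to the GM mean (log2), with the sets of 3 marked. The interferon-stimulated list (1.51 to 1.59 and -1.50 to -1.49) and the cornified list (-0.33 to -0.24 and 3.07 to 3.16) part the 2 imiquimod sets, and N-9 replicates 4 to 6 stand highest for the immediate early list. GM arrays, not drawn, had means of 8.19 to 11.89 for the interferon-stimulated list and 6.72 to 12.23 for the cornified list.

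The receptor of imiquimod was not detected clearly. TLR7 was dim, at 4.91 to 7.52 with imiquimod and 3.32 to 6.86 with N-9, with GM at 6.03 (0.91, adjusted p = 0.201, and 0.0493 without N-9 replicates 7 to 9), and TLR8, its relative, was at 5.70 to 6.63 with imiquimod and 5.90 to 6.78 with N-9 (-0.16, adjusted p = 0.807). Of 16 interferon and TLR7 signaling genes, 4 were higher with imiquimod (IFNK, TLR2, TRAF3, MYD88), none was lower, and all 4 passed with the block. The difference was above 0 for only 7 of the 16, with a median of -0.08. Over all named genes, 7.77% were higher and 3.89% lower. TLR2, a receptor of bacterial lipopeptides, was at 9.69, 9.84 and 10.48 with imiquimod and 5.95, 7.85 and 8.34 with N-9 (2.25, SE 0.21, adjusted p = 8.66e-15). It did not overlap, was above GM (8.49) by 1.48 with imiquimod and below it by 0.76 with N-9, and passed with any set left out. MYD88, the adaptor of most Toll-like receptors, was higher by 0.74 (adjusted p = 0.000511, and 0.0670 without imiquimod replicates 1 to 3). TRAF3, an adaptor of interferon induction, was 0.22 below GM with imiquimod and 1.27 below with N-9 (1.05, adjusted p = 0.00300), lost without N-9 replicates 4 to 6 (adjusted p = 0.425) or imiquimod replicates 1 to 3 (0.120).

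Among inflammatory genes, BCL2A1, TNIP1, TGFA and CCL20 were higher with imiquimod, while CXCL8, CXCL2 and CXCL3 did not pass over all arrays. Of 19 NFkB pathway and feedback genes, 13 were above GM with imiquimod and 10 with N-9, and 5 were higher and 2 lower with imiquimod in the direct test (3 and 1 with the block), where 7.77% of all named genes were higher and 3.89% lower. BCL2A1, an anti-apoptotic BCL2 relative, was at 8.52, 9.04 and 9.69 with imiquimod and 6.06, 6.73 and 7.85 with N-9 (2.20, SE 0.43, adjusted p = 0.000119). TNIP1, a partner of the feedback enzyme A20, averaged 11.92 ± 0.46 with imiquimod and 10.71 ± 0.18 with N-9 (SD, n = 6 and 9) (1.21, adjusted p = 7.29e-06). Neither gene overlapped or lost its call with a set left out. NFKBIA, the inhibitor IκBα, was 1.00 lower with imiquimod (adjusted p = 0.0414), but with the block the adjusted p was 0.172 and without N-9 replicates 4 to 6, which were at 12.94 to 13.15, the difference was -0.09 (adjusted p = 0.909).

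Of 33 cytokines and growth factors, 7 were higher and 2 lower with imiquimod (3 and 1 with the block), and of 18 chemokines 2 were higher (none with the block), against the same 7.77% and 3.89%. TGFA, a ligand of the EGF receptor, was at 13.45, 13.74 and 13.97 with imiquimod and 11.26, 12.38 and 12.56 with N-9, without overlap (1.59, SE 0.27, adjusted p = 8.88e-06), and passed with any set left out. HBEGF, another ligand of that receptor, ran the other way, at means of 11.00 with imiquimod and 12.34 with N-9, with GM at 9.19 (-1.34, adjusted p = 0.00500, and 0.0382 with the block). IL24 (1.91, adjusted p = 0.000675, and 0.0702 without imiquimod replicates 1 to 3) and IL33, an epithelial alarmin (2.14, adjusted p = 0.0106, and 0.0653 with the block), were higher with imiquimod, and neither was above GM with N-9. IL33 also lost its call without imiquimod replicates 1 to 3 (adjusted p = 0.187) or N-9 replicates 4 to 6 (0.264).

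The 17 genes that the study used to mark pro-inflammatory compounds (PIC-DGs) were chosen on these arrays, so their direction against GM is not independent evidence. With imiquimod 15 were above GM and 1 was below, with N-9 14 and 1, and 4 were higher with imiquimod than with N-9 (CCL20, OLR1, INHBA, CYLD) while none was lower. Over all named genes, 7.77% were higher with imiquimod than with N-9 and 3.89% lower. CCL20, a chemokine for dendritic cells and T helper cells, was at 11.64 to 13.38 with imiquimod, 8.51 to 10.48 with N-9 and 5.53 ± 1.92 in GM (2.94, SE 0.80, adjusted p = 0.00824, but 0.0678 with the block and 0.199 without imiquimod replicates 1 to 3). OLR1, a scavenger receptor, was at 11.74 to 12.96 with imiquimod and 9.92 to 11.17 with N-9 (2.04, adjusted p = 0.000373), INHBA, the activin subunit, differed by 1.49 (adjusted p = 0.00134) and CYLD, a deubiquitinase that restrains NFkB, by 0.86 (adjusted p = 0.00353, and 0.0827 with the block). Without imiquimod replicates 1 to 3 none of the 17 passed (adjusted p = 0.0837 for OLR1, 0.313 for INHBA and 0.0964 for CYLD). CXCL8 (0.64, adjusted p = 0.734), PTGS2 (-0.45, adjusted p = 0.724), CXCL2 (0.52, adjusted p = 0.443), TNFAIP3 (0.63, adjusted p = 0.166) and CXCL3 (1.06, adjusted p = 0.106) were above GM with both compounds. The last 3 passed without N-9 replicates 4 to 6 (adjusted p = 0.0331, 0.00309 and 0.00850) or without imiquimod replicates 4 to 6 (0.0407, 0.00844 and 0.000241).

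The 14 genes highest with N-9, taken from 65 by the same rule, were mostly genes that N-9 raised. Against GM, 10 were above with N-9 and 5 were below with imiquimod, and 9 moved with N-9 alone. MALAT1, an abundant nuclear non-coding RNA, was at 9.70, 10.02 and 10.42 with imiquimod, 11.71, 13.69 and 13.87 with N-9 and 10.87 ± 1.14 in GM (-3.09, SE 0.55, adjusted p = 2.08e-05). N-9 replicates 7 to 9 were the lowest of their group at 11.71 to 12.01 and still above all imiquimod arrays. HDAC9, a histone deacetylase, was at 7.90, 8.25 and 8.57 with imiquimod and 9.39, 10.31 and 11.31 with N-9 (-2.10, SE 0.27, adjusted p = 7.86e-09). SQSTM1 (p62), the autophagy receptor, was at 10.26, 10.65 and 10.88 with imiquimod and 11.81, 12.24 and 12.85 with N-9 (-1.74, SE 0.28, adjusted p = 3.36e-06). Both genes were at the GM level with imiquimod within their spread (0.44 and 0.13 above it, adjusted p = 0.221 and 0.804) and passed with any set left out.

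HES1, a Notch target, was lower with imiquimod by 2.08, FTX, a non-coding RNA of the X inactivation centre, by 1.74 and CCDC85B, a small coiled-coil protein, by 1.78, and all 3 passed with any set left out. SH3RF2, a ubiquitin ligase, had the largest difference of the 14 (-3.86, adjusted p = 2.81e-05), at 2.51, 3.86 and 6.46 with imiquimod, dim on every array, and 6.74, 8.07 and 8.69 with N-9. AMIGO2, an adhesion protein, and SLITRK6, a neurite membrane protein, averaged the GM level with N-9 (-0.01 and 0.00 from GM) and were below it with imiquimod, by 1.95 and 1.83. For AMIGO2 the N-9 mean joined unlike sets, at 12.86 to 13.14, 12.32 to 12.49 and 14.06 to 14.10. GM replicates 49 to 51 had it at 11.22 to 11.31, inside its imiquimod range of 10.89 to 11.42. Without imiquimod replicates 1 to 3, SH3RF2 (adjusted p = 0.0663), PTPRO, a receptor phosphatase (-2.03, 0.0512), and CITED4, a CBP/p300 cofactor (-1.84, 0.132), lost their calls. SLITRK6 lost its call without imiquimod replicates 4 to 6 (adjusted p = 0.0847) or N-9 replicates 4 to 6 (0.0527).

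EGR1, JUN and some other immediate early genes, which respond to growth factor and stress kinases within minutes, were higher with N-9. Of 33 immediate early genes and MAPK inhibitors listed, none was higher and 10 were lower with imiquimod, 7 of them also with the block, while the difference was above 0 for 14, and 10 were above GM with imiquimod and 20 with N-9. Among all named genes, 7.77% were higher and 3.89% lower with imiquimod in the direct test. The list mean was 10.32 to 10.46 with imiquimod, 10.40 to 11.66 with N-9 and 9.24 to 10.78 in GM. Untreated arrays thus spanned the imiquimod levels. EGR1, a zinc finger factor, was at 9.67, 10.66 and 11.45 with imiquimod, 12.21, 12.65 and 14.15 with N-9 and 11.37 ± 0.67 in GM (-2.35, SE 0.33, adjusted p = 1.34e-07). JUN was at 11.09, 11.42 and 12.00 with imiquimod and 12.33, 12.67 and 14.34 with N-9 (-1.71, SE 0.25, adjusted p = 4.25e-07). FOS, its AP-1 partner, was at 9.05, 9.57 and 9.75 with imiquimod and 10.15, 10.80 and 13.61 with N-9 (-2.03, SE 0.53, adjusted p = 0.00527). These 3 genes complete the 14 highest with N-9, so the rule that named them required that their arrays not overlap. JUN was below GM with imiquimod, by 0.73, and above it with N-9, by 0.98.

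N-9 replicates 4 to 6 were the highest of this list, with a mean 1.61 to 1.78 above GM, against 0.52 to 0.61 on the other N-9 arrays, and it was 0.44 to 0.58 above GM on the imiquimod arrays. FOS was at 13.50 to 13.61 there, and without them it lost its call (adjusted p = 0.256), and without imiquimod replicates 4 to 6 its adjusted p was 0.0540. NR4A1, an orphan nuclear receptor, differed by -1.52 (adjusted p = 0.0471, and 0.285 with the block), or by -0.33 without N-9 replicates 4 to 6. Without that set 5 of the 33 still passed as lower with imiquimod, and 2 passed as higher. With arrays centred on their medians 8 were lower and 3 higher. EGR1 and JUN passed with any set left out. JUND (-1.27, adjusted p = 0.000120), ZFP36, an mRNA decay factor (-1.11, adjusted p = 9.61e-05), and IER2 (-0.71, adjusted p = 0.000143) also passed with the block, and were -0.08, 0.57 and 0.01 from GM with imiquimod and 1.20, 1.68 and 0.72 above it with N-9.

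The 200 bases before the EGR1 start site are shown for the immediate early genes, at chr5:138465279-138465478 (plus strand), with the 2 CArG boxes in capitals, and those of CHORDC1 for the heat shock genes below, at chr11:90223050-90223249 (minus strand), with 3 overlapping HSE matches in capitals. The CArG box was in 1.29% of all windows and in 1 of 26 immediate early genes with a window, and HSE in 0.490% of all windows and in 4 of 18 heat shock genes (CHORDC1, DNAJA1, DNAJB6, SERPINH1).
EGR1: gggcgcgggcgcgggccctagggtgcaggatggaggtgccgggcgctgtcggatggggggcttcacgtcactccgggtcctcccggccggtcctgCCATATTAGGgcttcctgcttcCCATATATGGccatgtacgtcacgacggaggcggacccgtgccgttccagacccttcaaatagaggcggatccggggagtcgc
CHORDC1: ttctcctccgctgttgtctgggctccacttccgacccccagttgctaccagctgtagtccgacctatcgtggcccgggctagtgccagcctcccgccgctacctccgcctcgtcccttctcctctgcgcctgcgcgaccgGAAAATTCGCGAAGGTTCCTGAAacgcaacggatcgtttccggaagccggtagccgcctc

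Some cytosolic chaperones and oxidant response genes were lower with imiquimod, and a few were higher. Over all named genes, 7.77% were higher with imiquimod and 3.89% lower in the direct test. Of 21 heat shock genes, 2 were higher and 6 lower with imiquimod (2 and 4 with the block), and against GM 2 were above and 5 below with imiquimod and 3 above and 1 below with N-9. DNAJB1, an HSP70 co-chaperone, was at 12.00, 12.38 and 12.50 with imiquimod and 12.55, 13.67 and 14.54 with N-9 (-1.26, SE 0.24, adjusted p = 9.61e-05), 0.61 below GM with imiquimod and 0.64 above with N-9. Its relative DNAJB4 differed by -1.39 (adjusted p = 0.00283, but 0.273 without N-9 replicates 4 to 6 and 0.0974 without imiquimod replicates 1 to 3). CHORDC1, an HSP90 cofactor, was at 9.96, 10.81 and 11.32 with imiquimod and 11.60, 11.73 and 12.18 with N-9 (-1.13, adjusted p = 8.23e-05), where N-9 was at the GM level (-0.01) and imiquimod 1.14 below it. The CHORDC1 call was lost without imiquimod replicates 1 to 3 (adjusted p = 0.210). The list mean with N-9 was 0.93 to 1.02 above GM on replicates 4 to 6 and 0.59 to 0.69 below it on replicates 7 to 9, against -0.32 to 0.10 with imiquimod, so the imiquimod arrays lay between these N-9 sets. Without N-9 replicates 7 to 9, 2 members were higher and 10 lower with imiquimod. The lean turned without N-9 replicates 4 to 6, with 3 higher and 2 lower, and without imiquimod replicates 1 to 3, with 2 higher and 1 lower.

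Of 25 NRF2 targets, 1 was higher (UGDH) and 4 lower with imiquimod (SQSTM1, NFE2L2, GCLC, FTL), all also with the block. NFE2L2, which encodes NRF2, was at 11.84, 12.21 and 12.61 with imiquimod and 13.01, 13.11 and 13.30 with N-9, without overlap (-0.92, SE 0.17, adjusted p = 2.52e-05), 0.40 below GM with imiquimod and 0.53 above with N-9. GCLC, of glutathione synthesis, differed by -0.92 (adjusted p = 0.000447). Both lost their calls without imiquimod replicates 1 to 3 (adjusted p = 0.0672 and 0.333). UGDH, which makes UDP-glucuronic acid, was 0.97 higher (adjusted p = 0.000743, but 0.172 without imiquimod replicates 1 to 3 and 0.0888 without N-9 replicates 4 to 6). Of 35 lysosome and autophagy genes, 6 were higher and 6 lower with imiquimod (1 and 5 with the block), where 7.77% and 3.89% of all named genes were. UVRAG, of autophagosome maturation, was at 7.01 to 7.78 with imiquimod and 7.92 to 9.52 with N-9 (-1.38, adjusted p = 4.67e-09, and below 0.05 with any set left out), and MAP1LC3B, the LC3 of autophagosomes, differed by -0.66 (adjusted p = 0.00275).

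Growth arrest and cell death genes were split. GADD45A, a stress-induced arrest gene on the p53 list, was at 11.92, 12.46 and 12.48 with imiquimod and 13.17, 13.79 and 14.27 with N-9, with GM at 12.40 (-1.46, SE 0.17, adjusted p = 2.12e-10). It did not overlap and passed with any set left out. On that list of 21, 3 were higher and 5 lower with imiquimod (1 and 2 with the block), so its members did not share a direction. Of 18 apoptosis regulators 2 were higher and 2 lower. Both lists stand beside shares of 7.77% higher and 3.89% lower over all named genes. BCL2L11 (BIM), a BH3-only killer and CHOP target, was at 8.67, 9.74 and 9.88 with imiquimod and 10.02, 10.64 and 11.93 with N-9 (-1.24, SE 0.18, adjusted p = 1.91e-07), and PMAIP1 (NOXA), another, differed by -1.31 (adjusted p = 0.00232, but 0.0526 without N-9 replicates 4 to 6 and 0.0556 without imiquimod replicates 1 to 3). Both were at the GM level with imiquimod (0.21 and 0.11 above, adjusted p = 0.438 and 0.858) and 1.45 and 1.42 above it with N-9. BAK1, the pore-forming protein (0.80, adjusted p = 0.000175), and CFLAR, which blocks caspase 8 (0.75, adjusted p = 0.0118, and 0.0672 with the block), were higher with imiquimod, but not without imiquimod replicates 1 to 3 (adjusted p = 0.0507 and 0.214). CFLAR was also lost without N-9 replicates 4 to 6 (0.28, adjusted p = 0.457), which were at 10.06 to 10.15.

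CCNE1, the G1/S cyclin E1, was at 9.61, 9.91 and 10.29 with imiquimod, 7.29, 8.28 and 9.04 with N-9 and 8.98 in GM (1.66, SE 0.21, adjusted p = 5.27e-09). It was above GM with imiquimod and below it with N-9, and was the only member of 29 replication and G1/S genes that was higher with imiquimod, while MCM2 of the replicative helicase was lower (-0.70, adjusted p = 0.0261, and 0.107 with the block). Against GM, 2 members were above and 9 below with imiquimod, and 1 and 19 with N-9, where 7.04% of all named genes were below with imiquimod and 13.2% with N-9. The list mean relative to GM was -0.83 to -0.70 on imiquimod replicates 1 to 3 and 0.00 to 0.01 on replicates 4 to 6, and with N-9 it was -1.50 to -1.36 on replicates 1 to 3 and -0.22 to -0.03 on the others. Of 29 mitosis genes none passed the direct test over all arrays, but 7 were lower with imiquimod without N-9 replicates 1 to 3 and 3 without imiquimod replicates 4 to 6. Their list mean was -1.21 to -0.91 and 0.14 to 0.16 on the imiquimod sets, and -1.82 to -0.96, 0.93 to 0.94 and -0.41 to -0.33 on the N-9 sets, in order of replicate number.

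Single members of other lists stood far apart. RGS2, a brake on G protein signals and a cAMP target, was at 13.79, 13.94 and 14.18 with imiquimod and 11.29, 11.66 and 12.29 with N-9, with GM at 11.38 ± 0.81 (2.24, SE 0.45, adjusted p = 0.000180), while of the 12 cAMP and CREB targets 1 was higher and 2 lower. ADORA2B, an adenosine receptor on that list, was at 9.94 to 10.85 with imiquimod and 10.86 to 11.59 with N-9 (-0.74, adjusted p = 0.00107, and 0.172 without imiquimod replicates 1 to 3). ACTG2, a smooth muscle actin and SRF target, was at 8.99 to 9.63 with imiquimod and 6.15 to 8.44 with N-9 (2.10, adjusted p = 7.04e-10). CCN2 (CTGF), a YAP target, was on the N-9 side, at 7.96 to 8.93 with imiquimod and 8.40 to 12.16 with N-9 (-2.44, adjusted p = 0.00359), and N-9 replicates 1 to 3, at 8.40 to 9.25, overlapped imiquimod. Without N-9 replicates 4 to 6 its adjusted p was 0.0673. Of those 21 SRF and YAP targets 3 were higher and 2 lower. This list and the cAMP list stand beside shares of 7.77% higher and 3.89% lower over all named genes. PLAT, the tissue plasminogen activator, was 1.69 higher (adjusted p = 7.90e-06) and PLAUR, the urokinase receptor, 1.15 lower with imiquimod (adjusted p = 0.0185, and 0.0610 with the block). PLAUR also failed without imiquimod replicates 4 to 6 (adjusted p = 0.535) or N-9 replicates 4 to 6 (0.219).

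LFNG, a glycosyltransferase that tunes Notch, was at 3.17 to 5.95 with imiquimod, 4.45 to 8.01 with N-9 and 8.87 ± 0.58 in GM, so it was 4.23 below GM with imiquimod and 2.43 below with N-9 (-1.81, adjusted p = 0.00177, but 0.119 without imiquimod replicates 1 to 3 and 0.0512 without N-9 replicates 7 to 9). Of 19 Notch genes none was higher and 3 were lower with imiquimod. Over all named genes, the share beside this list and those below, 7.77% were higher and 3.89% lower. PTGER4, a prostaglandin E receptor, was 1.82 lower with imiquimod (adjusted p = 0.000178, and 0.0551 without imiquimod replicates 4 to 6). Of 30 hypoxia and glycolysis genes 6 were higher and none was lower (2 higher with the block, and 7.77% of all named genes), led by EGLN1, the oxygen-sensing hydroxylase (2.46-fold, adjusted p = 0.000188), and BNIP3, a mitophagy receptor (2.19-fold, adjusted p = 0.00451, and 0.133 without N-9 replicates 4 to 6), and without imiquimod replicates 1 to 3 none was higher and 1 was lower. Of 27 sterol and fatty acid genes 3 were higher, led by NSDHL of cholesterol synthesis (1.36, adjusted p = 0.000468, and 0.177 without imiquimod replicates 1 to 3), and 3 lower, led by SREBF1, the lipogenic factor (-1.29, adjusted p = 0.0121, and 0.0544 with the block). SREBF1 was at 11.44 to 11.58 on N-9 replicates 4 to 6, and without them it differed by -0.46 (adjusted p = 0.477). It also failed without imiquimod replicates 1 to 3 (adjusted p = 0.131). Of 10 metallothionein and zinc genes 2 were higher, MTF1 (0.78) and MT1X (0.24), with adjusted p = 0.0749 and 0.0902 with the block.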

How the data were processed

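Vk2 RNA on 105 arrays was deposited by the authors as log2 values of 54675 probesets. MAS5 and GCOS 1.3 are named in the submitters' processing notes while RMA is described in the methods, and the values have the steps of MAS5 signals. Values were quantile normalized, 62 control probesets were dropped, and 103 arrays of 8 groups were fitted with limma 3.58.1 (R 4.3.3, statmod 1.5.0) with Benjamini-Hochberg adjustment over 54613 probesets. A TNF-alpha array equal to the mean of 3 others and a GM array whose values correlated at most 0.0484 with any other array were left out. A call is an adjusted p below 0.05 and a fold above 2, and list members are counted at an adjusted p below 0.05. A gene takes its brightest probeset that names it alone (41091 probesets with 1 gene, 1801 with several, 11721 with none listed), and 66 list entries had none. LPCAT3 had another probeset called the opposite way. Sets of 3 as a block had a correlation of 0.438. Members and lists were chosen with earlier results of these data known. Named genes were the 14 highest per treatment, the 4 largest differences per list, the 6 list genes highest over GM per treatment, TLR7, TLR8, MYD88, the PIC-DGs and GAPDH, and any other gene was picked with its values known. The fits were tested on simulated data in which arrays were independent, without sets of 3, so that test cannot show how the sets affect calls. Sequences are from RefSeq, GRCh38.p14. The number of arrays limits the precision. Alternatives covered scaling, dim probesets, samples, blocks and left-out arrays.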

Additional observations from a re-analysis of the deposited data

Results flagged for a closer look

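Of 270 groups of arrays examined for a single array far from the rest, 10 held one, and chance flags about 1 in 20 groups. With imiquimod, CCDC85B was at 7.01 log2 on replicate 3 (nearest array 8.06), PDE10A at 2.11 on replicate 2 (nearest 5.44), NEU1 at 8.24 on replicate 1 (nearest 8.81), GADD45A at 11.92 on replicate 3 (nearest 12.31), PLK3 at 8.08 on replicate 6 (nearest 8.54) and BCL2L11 at 8.67 on replicate 3 (nearest 9.61). With N-9, TLR2 was at 5.95 on replicate 7 (nearest 7.40), IL33 at 2.11 on replicate 5 (nearest 5.61), PDE10A at 4.19 on replicate 2 (nearest 5.74) and GAPDH at 14.16 on replicate 9 (nearest 14.42). The change against GM differed between imiquimod and N-9 for 2670 probesets, which is the direct test itself.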

How the results depend on the processing

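Sets of 3 decide most. Probesets higher with imiquimod (1242) numbered 731 without quantile normalization, 639 with imiquimod and N-9 alone, 800 with all 105 arrays, 493 with sets as a random block, 36 with 1 mean per set, and 907 to 2327 with a set left out (2327 without N-9 replicates 7 to 9). Those lower (1428) numbered 2164, 849 (the 2 groups alone), 559 (block), 27 (means) and 844 (without imiquimod replicates 1 to 3) to 2365 (without N-9 replicates 7 to 9). Called with imiquimod against GM (1875) were 1105 (block), 449 (means), 3742 (replicate number as a block, groups alone) and 1259 to 3128 (3128 without imiquimod replicates 4 to 6). Called with N-9 against GM (2377) were 1206 (offset of 16), 1391 (mean level of at least 6), 1295 (block), 856 (means) and 2475 to 4085 (4085 without N-9 replicates 7 to 9). With single arrays left out the 4 counts were 1009 to 1445, 1130 to 1620, 1486 to 1927 and 2166 to 2686. No replicate number pairs imiquimod and N-9 arrays (correlation of deviations -0.02 to 0.08), and it as a block gave 1070 and 1436. No gene named as passing changed direction, but lists did. Higher and lower members went to 1 and 4 of the interferon-stimulated genes (5 and 0 over all arrays) and to 0 and 1 of the hypoxia genes (6 and 0) without imiquimod replicates 1 to 3, and to 0 and 1 of the ER genes (6 and 0) without N-9 replicates 4 to 6. For the heat shock genes (2 and 6) they went to 2 and 1 without imiquimod replicates 1 to 3 and to 3 and 2 without N-9 replicates 4 to 6. Of the 28 highest genes 4 passed with 1 mean per set. Signals below 7 are imprecise. The causes were not tested.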

Other observations

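The direction of calls differed by kind of probeset. Among the brightest probesets of named genes 541 were higher and 217 lower with imiquimod, among 21316 further probesets of those genes 488 were higher and 798 lower, and among 11721 probesets with no gene listed 182 were higher and 337 lower. The first balance moved with the scaling, to 384 and 343 without quantile normalization and 794 and 171 with arrays centred on their medians, the second to 262 and 1160 and to 587 and 648, and the third to 65 and 558 and to 174 and 308. MALAT1 had 12 probesets, of which 7 were lower with imiquimod and none was higher (from -3.55 to 0.12 log2), and both probesets of FTX were lower. With sets of 3 as a block 5 of 12 and 1 of 2 were.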
